A study of Homo sapiens with 59 samples.

Results

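The genes described here encode the proteins of the cytosolic ribosome, the particle that translates messenger RNA outside the mitochondria. They were chosen by name alone: every gene of the expression table whose symbol is RPL or RPS followed by a number (with or without a final A or X), together with RPSA, RPLP0, RPLP1 and RPLP2. The rule found 77 of 19084 genes, of which 31 belong to the small (40S) subunit and 46 to the large (60S) subunit. FAU, which encodes a further ribosomal protein as a fusion with a ubiquitin-like sequence, and GNB2L1, the ribosome-bound scaffold also known as RACK1, fall outside the rule and are given beside the members.

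The 59 libraries are poly(A) RNA from neural stem cells derived from WA09, an established human embryonic stem cell line also called H9. All cultures shared the same treatment with FGF8b at 200 ng per mL, were then held in CHIR99021, a GSK3 inhibitor that switches on WNT signalling, and finished with 4 days of retinoic acid. Only the length of the CHIR99021 step differed, from 2 to 72 h over 20 time points, every 2 h up to 24 h and every 6 h from there on, so that total time in culture rose with it; cultures that never saw CHIR99021 were not analysed here. The time points held 3 libraries each, with the labels A1, A2 and B1, apart from 48 h with 2 (A1 and A2). Nothing in the labels says whether A1, A2 and B1 were grown separately, so the p-values below describe the spread among these libraries, which may be technical.

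A ribosome holds 1 copy of nearly every one of these proteins, the acidic stalk proteins RPLP1 and RPLP2 being the exception. Cells match their output largely after transcription: the mRNAs begin with a cytosine followed by a run of pyrimidines, the terminal oligopyrimidine (TOP) motif, through which mTOR signalling sets how many of them are on ribosomes. Their mRNAs are long-lived and among the most abundant of growing cells, and neural progenitors, which divide quickly, are known for a high demand for ribosomes. RNA levels therefore do not give how many ribosomes the cells held, and in RNA from whole cultures fewer cells of a type cannot be told apart from less RNA per cell.

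The motif can be seen at the annotated starts of the members that the results turn on. Below are the 15 bases before and the 15 from the start of transcription onward, 5′ to 3′ on the gene's own strand, from RefSeq on GRCh38.p14, with the cytosine and its pyrimidine run in capitals. The first 6 genes carry it, and are shown because they fell with exposure or at 30 and 54 h or, for RPS3A, because it was the most abundant member.
RPL13A (chr19:49487593-49487622, plus strand): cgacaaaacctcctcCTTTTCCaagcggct
RPS10 (chr6:34426055-34426084, minus strand): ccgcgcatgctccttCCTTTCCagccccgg
RPS16 (chr19:39435935-39435964, minus strand): gtggcccctagctttCCTTTTCCggttgcg
RPL29 (chr3:51995881-51995910, minus strand): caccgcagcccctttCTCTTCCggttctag
RPL31 (chr2:101002274-101002303, plus strand): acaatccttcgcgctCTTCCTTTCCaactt
RPS3A (chr4:151099613-151099642, plus strand): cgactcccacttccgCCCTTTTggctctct
In the next 4 the annotated start is not such a cytosine, and they are shown because RPS26 moved against the family, RPS4X and RPL4 were among the 3 that varied least among replicates and RPL10A fell with exposure.
RPS26 (chr12:56041903-56041932, plus strand): gagacacataacctcgattttcttccgcca
RPS4X (chrX:72277234-72277263, minus strand): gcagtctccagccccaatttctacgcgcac
RPL4 (chr15:66504841-66504870, minus strand): tacagcgggagtggtaagcacttccttttc
RPL10A (chr6:35468386-35468415, plus strand): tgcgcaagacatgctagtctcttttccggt
A match at a listed start (C followed by at least 4 C or T) was found for 46 of the 62 members with a promoter entry, or 74.2%, against 5.14% of all 27305 genes with an entry. Within 10 bases of the start the shares were 91.9% and 38.4%, so a start placed a few bases off can hide the motif. In the 300 bases around the start, on both strands, CCGGAA was present for 56.5% of members and 20.1% of all genes, GGGCGG for 58.1% and 48.3%, AAGATGG for 12.9% and 7.11%, CACGTG for 6.45% and 8.77%, and TATAAA for 8.06% and 14.0%. These matches describe the sequence only. Among the members without an entry were RPL5, RPL7, RPL8, RPL23, RPL23A, RPL30, RPL37, RPS2, RPS15A and RPS20.

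The values are TPM (a share of all transcripts of the library), a level per length of transcript that sums to the same total in every library; sequencing depth is unknown. Between 9348 and 13085 genes reached a TPM of 1, with under 10000 in 3 libraries (72 h A2, 4 h B1 and 42 h B1) and at least 11004 in the others. Those 3 libraries also stood apart in the members themselves: the rank correlation of the 77 levels with their mean over all libraries was 0.730 to 0.861 in them and at least 0.898 in the other 56. Their values are kept below, and the counts of called members are given with and without them. Among neural progenitor genes PAX6, SOX3, NES and VIM were above 0 in all libraries, SOX2 was listed at 0 in 1 library and SOX1 in 3.

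The 77 members together took 17.0% ± 2.68 of all TPM (SD, n = 59 libraries), between 13.3% and 27.0%. The small subunit took 7.50% ± 1.66 and the large subunit 9.49% ± 1.27. Of the 100 most abundant genes of a library, 46 to 58 were members, with a median of 52. By time point the share was lowest at 54 h (13.7% ± 0.460), 30 h (14.4% ± 0.973) and 6 h (14.8% ± 0.884), and highest at 48 h, with 19.9% and 24.7% in its 2 libraries. The 72 h A2 library held 27.0%, against a lowest share of 16.6% at 72 h, and the 22 h B1 library 22.7%. The 60 h A1 library held 21.1%, against 13.3% in both 60 h A2 and 60 h B1. The means at 22, 60 and 72 h thus leaned on 1 library each.

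**Figure D1:**
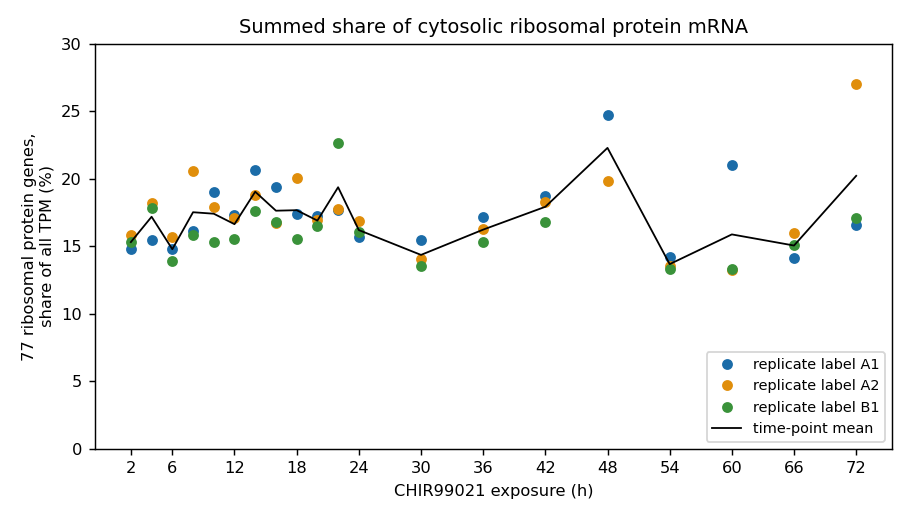
Share of all TPM taken by the 77 ribosomal protein genes (vertical axis, percent) against hours of CHIR99021 (horizontal axis), 1 point per library, coloured by replicate label, with a line through the time-point means. The 30 and 54 h points lie between 13.3% and 15.4%, and the 72 h A2 and 48 h A1 points stand highest, at 27.0% and 24.7%.

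The ratio of large to small subunit TPM was 1.29 ± 0.152 (SD, n = 59), with 1.28 ± 0.203 at 2 to 8 h, 1.31 ± 0.0626 at 18 to 24 h and 1.32 ± 0.202 at 54 to 72 h (n = 12 each). It fell below 1 in the 72 h A2 (0.735), 42 h B1 (0.787), 8 h A2 (0.875), 4 h B1 (0.988) and 8 h B1 (0.990) libraries, among them all 3 with under 10000 genes. Libraries labelled B1 had the lowest share of the 3 labels at 11 of 19 time points and the highest at 1, and their mean share was 16.0% ± 2.12 (n = 19) against 17.4% ± 2.65 for A1 and 17.5% ± 3.01 for A2 (n = 20 each). The labels do not explain what A and B stand for.

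Although most of the proteins are needed in equal number, mean mRNA levels per length ran from 343 to 8479 TPM. The most abundant was RPS3A, a small subunit protein near the mRNA exit, at 8479 ± 4345 TPM (SD, n = 59). RPS4X, the X-linked form of a small subunit protein, followed at 6965 ± 922.5 TPM, then RPSA, also known as the laminin receptor precursor, at 5424 ± 853 TPM, RPL4 at 5079.9 ± 549.9 TPM and RPL5, a partner of 5S RNA, at 4927 ± 801 TPM. RPS3A owes part of its lead to a few libraries: its highest values were 32336 TPM in 72 h A2, 18917 TPM in 42 h B1 and 16679.9 TPM in 8 h A2, and its median was 7453 TPM against 7018 TPM for RPS4X, so the order of these 2 genes is within their spread.

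At the other end stood RPL28 at 343 ± 103 TPM, RPL13 at 429.6 ± 62.1 TPM, RPL27A at 436 ± 105 TPM, RPS26 at 442 ± 124 TPM and RPS29 at 467 ± 308 TPM, and these 5 levels overlap within their SDs. RPL38, a short large subunit protein known for its role in translating Hox mRNAs in mice, was listed at 0 in the 42 h B1 library and lay between 323 and 1204 TPM in all the others. Ribosomal protein genes also have many processed pseudogenes: the GENCODE 29 annotation names 1133 for the members, a median of 10 each and up to 91 for RPL23A, and how reads were split with them could change levels.

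Replicate spread differed widely between members. The SD of log2(TPM + 1) within time points had a median of 0.28, from 0.125 for RPL4, 0.130 for RPL15 and 0.130 for RPS4X to 0.729 for RPL28 and 1.32 for RPL38. It was larger for short genes: the 25 members with a coding length of at most 405 bases had a median of 0.335, and the 25 of at least 582 bases had 0.207. Across the 77 genes, which are not independent, Spearman's rho of this spread was −0.514 with coding length, −0.127 with mean TPM and −0.202 with the number of pseudogenes. All of these values include the 3 libraries with few genes, and that of RPL38 includes its 0 in 42 h B1. The spread without those 3 libraries was not computed.

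Change with the length of exposure was tested with limma on log2(TPM + 1), on which differences of low genes are understated, over the 15305 genes that reached a TPM of 1 in 3 or more libraries. All 77 members passed that filter, and a gene is called where the p adjusted over all tested genes is under 0.05. Over the whole course, fitted with a smooth curve, 10 of 77 members, or 13.0%, were called, against 36.8% of all tested genes. Among them were RPL10A, RPL13A, RPL14, RPL15 and RPL35A of the large subunit and RPS4X, RPS10 and RPS26 of the small one, with an adjusted p of 4.0e-05 for RPL15 and 0.0012 for RPL13A. Without the 3 libraries with few genes 21 members and 41.1% of all genes were called, and the 10 were among them.

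**Figure D2:**
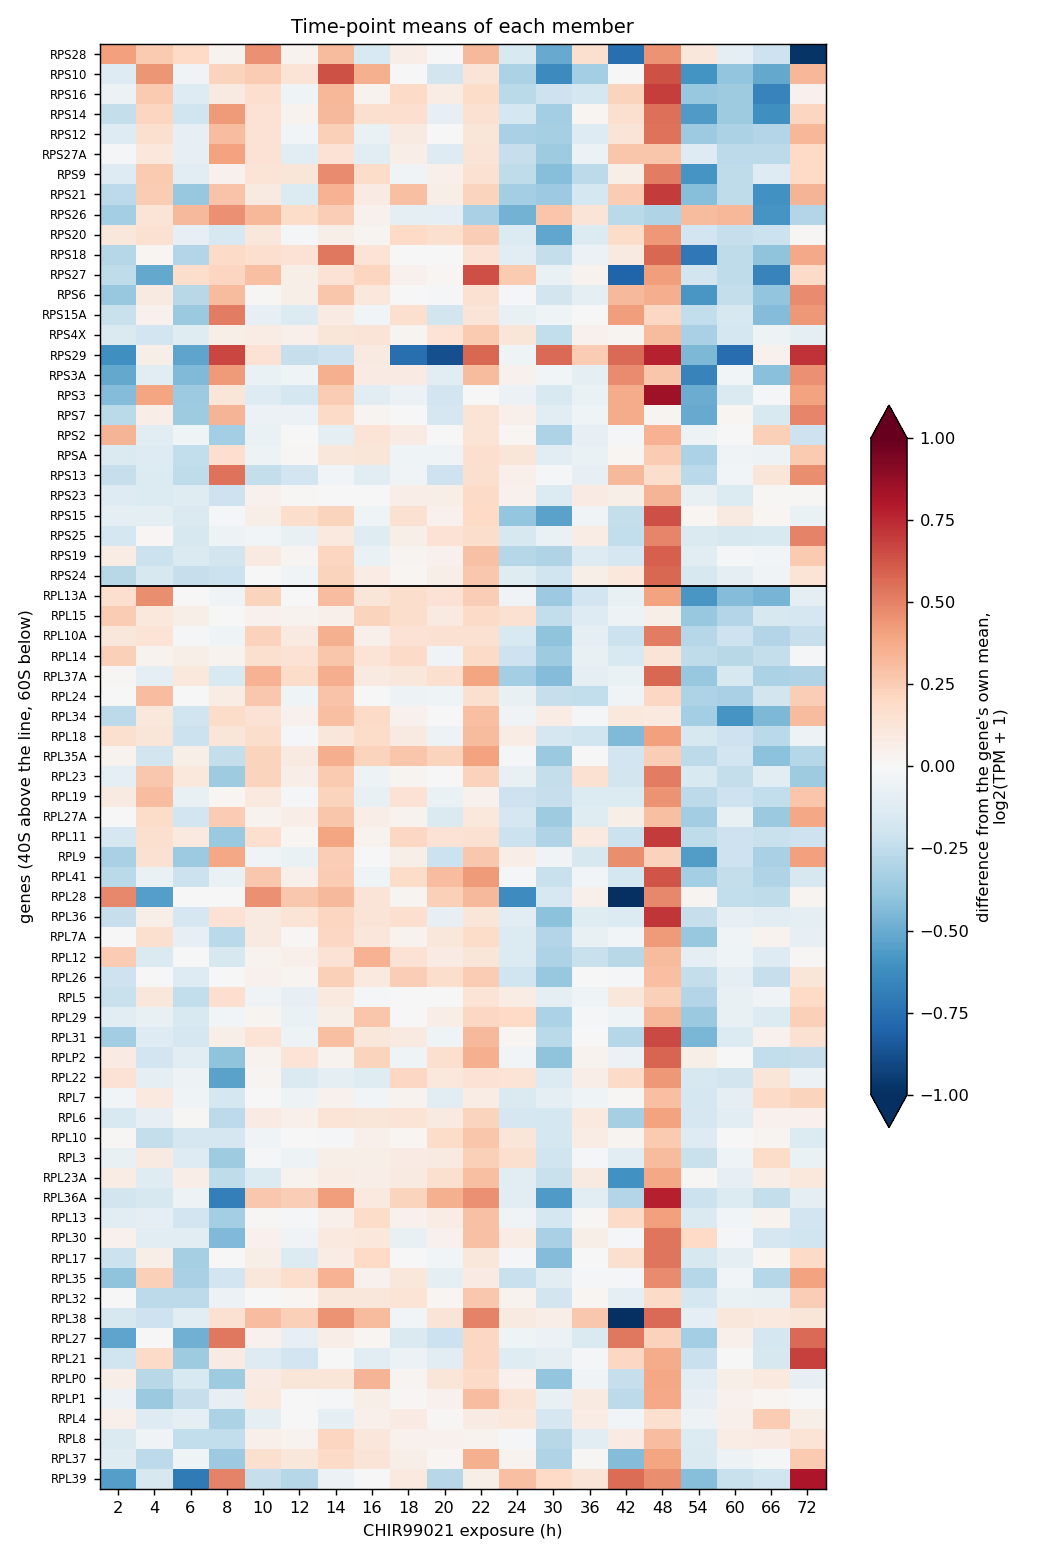
Each row is 1 of 72 members and each column a CHIR99021 time point, in order but not to scale; colour is the mean log2(TPM + 1) of the time point minus the mean of the gene over its 20 time-point means. Over all 77 members, 1 lay below its own mean at 48 h, 72 did at 30 h and 70 at 54 h.

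The longest exposures (54, 60, 66 and 72 h) were compared with the shortest (2, 4, 6 and 8 h), 12 libraries each. The share of the family was 16.2% ± 4.08 late and 16.2% ± 1.84 early, with medians of 14.6% and 15.7%; without the 72 h A2 and 4 h B1 libraries the means were 15.2% ± 2.37 and 16.1% ± 1.85 (n = 11 each). Of the members, 4 rose and 7 fell. That is 5.19% and 9.09% of members against 14.3% and 15.8% of all tested genes, of which 30.1% were called in either direction. The median difference of the 77 members was −0.0024 and that of all tested genes −0.042, both on the log2 scale, with 38 members above 0 and 39 below. The split of called members was 2 higher and 6 lower with median-ratio scaling of the libraries, 6 and 7 with quantile normalization, and 6 and 18 without the 3 libraries with few genes, where the 11 called members all kept their call and direction. In that last fit 7.79% and 23.4% of members were called, against 17.8% and 19% of all genes.

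RPL13A, a large subunit protein also known for a role outside the ribosome in silencing inflammatory mRNAs, fell most. Its level was 2065 TPM at the lowest, 2559.5 at the median and 3714 at the highest of the 12 early libraries, and 1434, 1691 and 3179.7 TPM in the 12 late ones (log2 difference −0.54, SE 0.0893, limma adjusted p = 4.5e-06). The ranges overlap, but the late median lies below the lowest early value. RPL15, which sits in the core of the large subunit, was at 1572, 1774 and 2129 TPM early and at 1241, 1357 and 1724 TPM late (−0.36, SE 0.0581, adjusted p = 3.2e-06). Its late median, too, lies below every early library.

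The other large subunit members that fell were RPL10A, at 1841 ± 294 TPM early and 1502 ± 308 TPM late (−0.30, SE 0.111, adjusted p = 0.034), RPL14, at 1215 ± 184 and 998 ± 173 TPM (−0.29, SE 0.0923, adjusted p = 0.014), and RPL19, at the tunnel exit, at 2223 ± 289 and 1969.6 ± 449 TPM (−0.19, SE 0.0744, adjusted p = 0.043). Of 14 alternative fits, 6 kept the call of RPL19, 8 that of RPL10A and 10 that of RPL14. RPL19 lost it under both scalings and when any 1 replicate label was left out. In the small subunit RPS10 and RPS16, both proteins of the head of the 40S, fell. RPS10 ran from 817 to 1527 TPM early, with a median of 997, and from 487 to 2827 TPM late, with a median of 668 (−0.42, SE 0.147, adjusted p = 0.026). RPS16 ran from 1344 to 2510.4 TPM with a median of 1646 early and from 852 to 2314 TPM with a median of 1275 late (−0.38, SE 0.119, adjusted p = 0.011). In both the groups overlap and the highest late values exceed the early median. Leaving out the 72 h A2 library alone gave 6 members higher and 14 lower, and RPL10A then lost its call (adjusted p = 0.062). These counts stand without the share of all genes in that fit, so they are not read as particular to the members.

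Against these 7 members 4 rose. RPL8, near the peptidyl transferase centre, rose from 1975 ± 245 to 2274 ± 227 TPM (0.21, SE 0.0614, adjusted p = 0.0079), and RPL4, which lines the exit tunnel, from 4663 ± 506 to 5378 ± 639.8 TPM (0.20, SE 0.0567, adjusted p = 0.0045). The early and late ranges overlap for both genes.

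**Figure D3:**
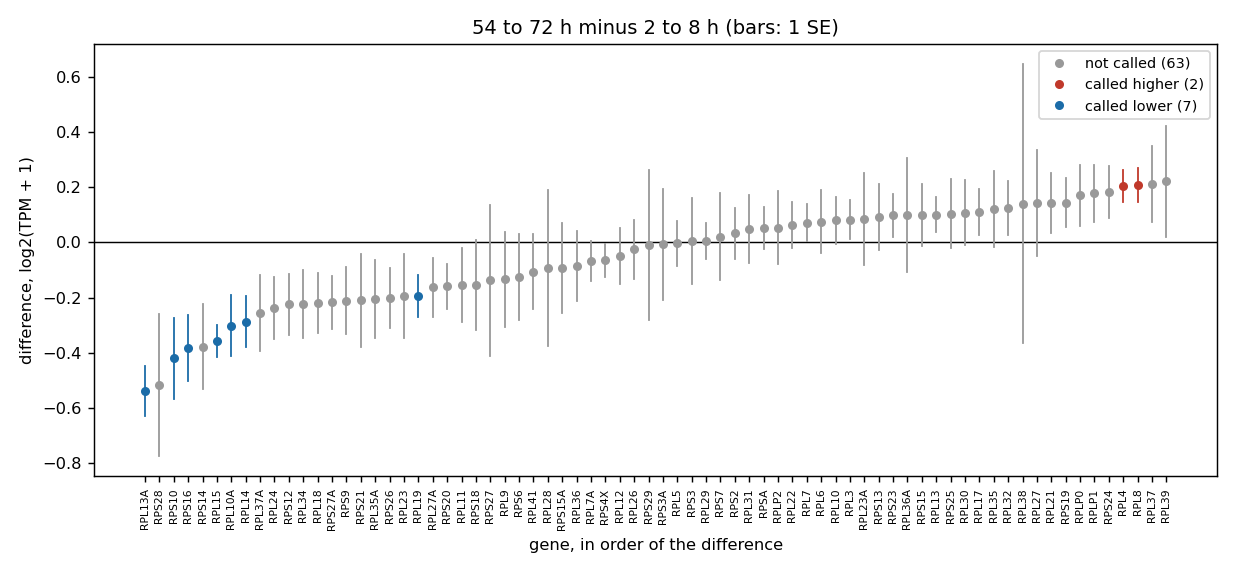
Difference between 54 to 72 h and 2 to 8 h in log2(TPM + 1) for 72 members (vertical axis), in order of size (horizontal axis), with bars of 1 SE; red points were called higher and blue points lower. Those drawn lie between −0.54 for RPL13A and 0.22 for RPL39, and 63 of them were not called.

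Over the same contrast the cultures changed in other ways. The summed TPM of 7 epithelial genes went from 2054 ± 778 to 543 ± 96.6 and all 7 fell. That of 15 cell cycle genes went from 1432 ± 133 to 2970.2 ± 479.8, and 12 rose and 1 fell. For 11 neural progenitor genes the sum was 3457 ± 549 and 3355 ± 459 (n = 12 each). Of the single progenitor genes 8 rose and 2 fell (median 0.80). Of 8 neuron genes 7 rose (median 2.62), their sum going from 173 ± 61.2 to 281 ± 47.6 TPM, and the 4 tested endoderm genes all fell (median −2.36). Among epithelial genes CDH1 was listed at 0 in 11 of all 59 libraries. The part of these shifts in the changes of RPL13A, RPL15 or the other members was not tested.

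To show which members moved against their own family, the mean log2(TPM + 1) of the 77 was subtracted from each library before the same test. Of all tested genes 26.1% were then called, and of the members 7 were higher late (9.09%, against 13.3% of all genes) and 8 lower (10.4%, against 12.8%). The 11 genes above kept their directions, with RPL13A at −0.50 (SE 0.0683, adjusted p = 9.7e-08) and RPL15 at −0.32 (SE 0.0733, adjusted p = 7.8e-04) among those that fell, and RPL8 at 0.25 (SE 0.0653, adjusted p = 0.0034) and RPL4 at 0.24 (SE 0.0843, adjusted p = 0.027) among those that rose. Newly called were, among others, RPS14, beside RPS26 at the platform of the small subunit, at −0.34, and, on the higher side, RPS24 at 0.22 and RPS19, the gene most often mutated in Diamond-Blackfan anaemia, at 0.18 (adjusted p from 0.023 to 0.044). Of 14 alternative fits, 6 kept the call of RPS19, and 8 kept that of RPS14 and that of RPS24. RPS19 lost it with quantile normalization, when any 1 replicate label was left out and without the 3 libraries with few genes. Without the 72 h A2 library 14 members were higher and 14 lower. The share of all genes called in that fit is not given, so these counts are not read as particular to the members.

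Within the first day the family moved mostly upward. Between 2 to 8 h and 18 to 24 h, 13 members rose and RPS26 fell, which is 16.9% and 1.30% of the 77 against 10.5% and 9.45% of all tested genes (20.0% in either direction). The median difference was 0.11 for the members and 0.010 for all genes, and 63 of 77 members lay above 0; the member median was 0.090 with median-ratio scaling and 0.066 with quantile normalization. Each of these scalings called 7 members higher, 9.09% against 10.4% and 13.1% of all genes, so the larger share of rising members was not seen under them. Without the 3 libraries with few genes 17 rose and 1 fell, or 22.1% and 1.30%, against 13% and 14.6% of all genes. RPSA, RPLP0, RPL32, RPL37 and RPL39 were then called higher, and RPS24 was not called. Of the 13 called with all libraries, 9 belong to the large subunit. The share of the family was 16.2% ± 1.84 early and 17.5% ± 2.01 at 18 to 24 h (n = 12 each). Other genes moved in the same window: all 7 epithelial genes fell (median −2.82), 3 of 4 endoderm genes fell, 11 of 15 cell cycle genes rose (median 0.92), 4 of 8 neuron genes rose, and of 11 neural progenitor genes 8 rose and 1 fell (median 0.70). The part of these shifts in the rise of the members was not tested.

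RPL41, the smallest ribosomal protein, had the largest rise of the 13, from 3389 ± 967 to 4327 ± 705 TPM (0.38, SE 0.136, adjusted p = 0.040). RPLP1, a stalk protein, rose from 3306 ± 455 to 4103 ± 647 TPM (0.31, SE 0.103, adjusted p = 0.026). Both genes, and RPS24 named below, lost their call without the 22 h B1 library, where the median of all members was 0.085. RPL41 also lost it with median-ratio scaling, with quantile normalization and when any 1 replicate label was left out. RPLP1 lost it with median-ratio scaling and without A1 or B1. RPL13 went from 379 ± 42.4 to 459 ± 61.2 TPM (0.28, SE 0.0641, adjusted p = 0.0012), its 12 early libraries lying between 284 and 450.4 TPM and its 12 later ones between 371 and 631 TPM.

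Smaller rises, of 0.19 to 0.29, were those of RPL10, which joins the large subunit last, RPL22, which also binds viral RNA, RPL3, RPL4, RPL8, RPL29, RPS4X, RPS23, at the decoding centre, and RPS24. The call of RPS24 was kept in 4 of 13 alternative fits. It was lost under both scalings, when any 1 replicate label was left out and without the 3 libraries with few genes. RPL4 was at 3794 to 5442 TPM early and at 4895 to 5720.4 TPM later, and RPS4X at 5599 to 7739 TPM and 6832 to 9729 TPM; both pairs of ranges overlap. RPS26, which contacts the mRNA just upstream of the start codon, went the other way, from 327 to 916 TPM with a median of 461 early to 276 to 485 TPM with a median of 356 later (−0.40, SE 0.108, adjusted p = 0.0063). When 30 h was set against 6 h, 1 whole day apart, no member was called (limma, 5 at an unadjusted p under 0.05, of which 1 higher and 4 lower) and the median was −0.11, so the upward shift belongs to these windows and not to every pair of times a day apart.

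From 18 to 24 h to the mean of 54, 60, 66 and 72 h the movement was downward. The mean log2(TPM + 1) of the members was 10.77 over 18 to 24 h, and 10.47, 10.59 and 10.56 at 54, 60 and 66 h. At 72 h it was 10.85, with 10.73 in A1 and 10.78 in B1, so the family was not low at the last time point. Between 18 to 24 h and 54 to 72 h, 10 members fell and 1 rose, or 13.0% and 1.30% against 7.08% and 5.43% of all tested genes (12.5% in either direction). The median was −0.13 for members and −0.041 for all genes, with 64 members below 0. With quantile normalization it was −0.089, with 47 members below 0 and 11 called lower, 14.3% against 7.75% of all genes. Median-ratio scaling gave −0.15, with 70 members below 0. It called 7 lower, and these 9.09% are near the 8.11% of all genes. RPL13A fell from 2574 ± 313 to 1827 ± 494 TPM (−0.52, SE 0.0893, adjusted p = 2.1e-05) and RPL15 from 1861 ± 58.4 to 1411 ± 142 TPM (−0.40, SE 0.0581, adjusted p = 7.7e-07). For RPL15 the groups do not overlap: the lowest library of 18 to 24 h stood at 1750.1 TPM and the highest late one at 1724 TPM (12 libraries each).

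RPS4X, among the steadiest members, fell from 7659 ± 734 to 6213 ± 641 TPM (−0.30, SE 0.0588, adjusted p = 1.7e-04), after its rise of 0.24 within the first day; both contrasts share the 18 to 24 h libraries. RPL35A fell by 0.51, RPL41 by 0.49, RPS16 by 0.39, RPL10A by 0.32, RPS20 by 0.27 and RPL29 by 0.20 on the log2 scale (adjusted p from 0.011 to 0.044). Without the 72 h A2 library 15 members fell and the 1 rise was no longer called, and the share of all genes in that fit is not given. Without the 3 libraries with few genes 19 fell and 1 rose, or 24.7% and 1.30% against 9.09% and 9.71% of all genes. In this window none of 7 epithelial genes was called (limma, 2 at an unadjusted p under 0.05), 4 of 15 cell cycle and 3 of 8 neuron genes rose, and of 11 neural progenitor genes 3 rose and 3 fell; their part in the falls was not tested.

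**Figure D4:**
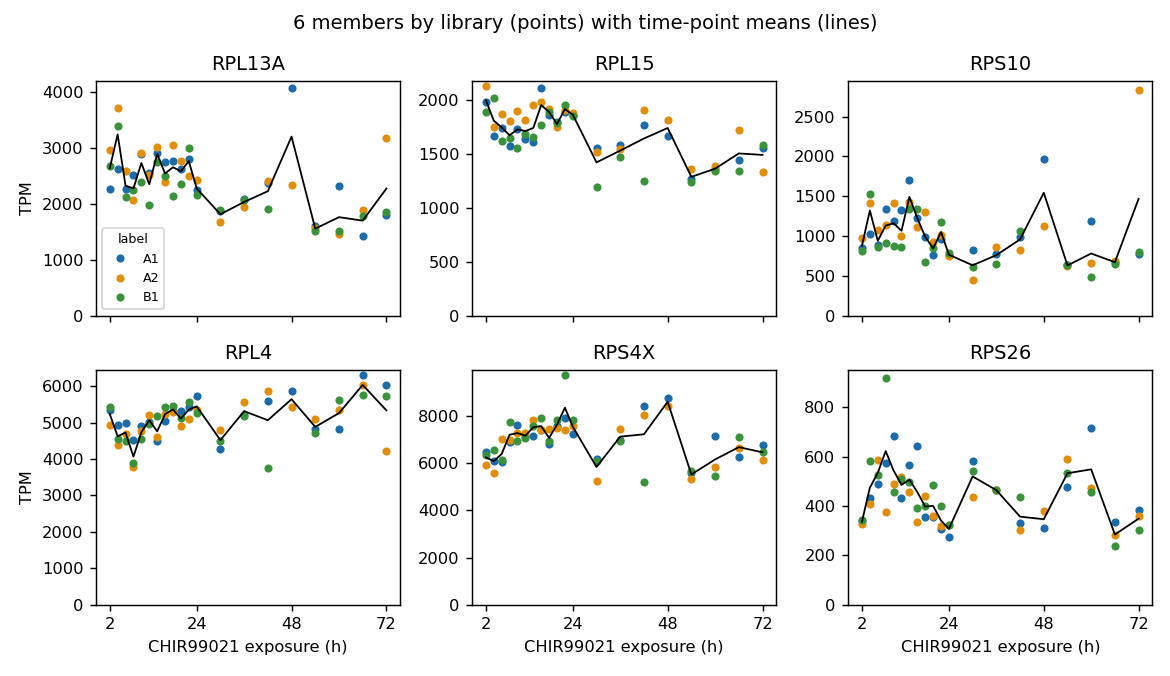
TPM (vertical axes, from 0) against hours of CHIR99021 (horizontal axes) for RPL13A, RPL15, RPS10, RPL4, RPS4X and RPS26, 1 point per library coloured by replicate label, with lines through the time-point means. RPL13A is highest at 4 h (3247.5 TPM) and lowest at 54 h (1559.9 TPM), RPL15 falls from 1999 to 1287 TPM between 2 and 54 h, and RPS4X is highest at 48 h (8614 TPM).

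The 2 low time points of the family, 30 and 54 h, were compared with the times on either side (24, 36, 48 and 60 h). Earlier results of these data had shown other genes out of line at these hours, so they were not chosen independently. No member was called higher and 15 were called lower, which is 19.5% of the 77, against 9.77% of all tested genes higher and 4.53% lower (14.3% in either direction; limma, 39 members at an unadjusted p under 0.05). The median was −0.28 for members and 0.054 for all genes, and 73 of 77 lay below 0. The share of the family was 14.0% ± 0.777 in the 6 libraries of 30 and 54 h and 17.2% ± 3.43 in the 11 of their neighbours. The share taken by the 100 highest genes was lower as well, at 24.4% ± 0.748 against 29.2% ± 3.44, and members make up much of that group; its part in the result was not tested. Of 15 cell cycle genes 4 were lower, of 7 epithelial genes 1 was lower, and of 11 neural progenitor genes 1 was higher and 2 lower; their part was not tested either.

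RPL29, a large subunit protein that is also found at the cell surface as a heparin-binding protein, showed the smallest p. It was at 1002 TPM at the lowest, 1066 at the median and 1223 at the highest of the 6 libraries, and at 1205, 1476 and 1766 TPM in the 11 neighbours (−0.45, SE 0.0815, adjusted p = 6.3e-05). The groups overlap only between 1205 and 1223 TPM. RPS4X was at 5239.9, 5624 and 6179.6 TPM and its neighbours at 5468, 7239.7 and 8792 TPM (−0.36, SE 0.0735, adjusted p = 3.4e-04). RPL7A, whose gene hosts several snoRNAs, was at 1972 ± 245 TPM against 2535 ± 563 TPM (−0.38, SE 0.0918, adjusted p = 0.0028). RPL31, at the exit of the nascent chain, had the largest difference of the called members, 1204 ± 208 TPM against 1689.6 ± 485 TPM (−0.50, SE 0.153, adjusted p = 0.020), with ranges that overlap widely.

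Other members called lower were RPS9 (−0.44), RPL13A and RPL17 (−0.41 each), RPS20 (−0.34), RPL3 (−0.31), RPSA (−0.28), RPL8 (−0.27), RPL15 (−0.26), RPL13 (−0.25) and RPL4 (−0.20), with adjusted p from 0.0055 to 0.044. RPS26 again stood against the rest, at 526 ± 59.6 TPM against 423 ± 122 TPM (0.38, SE 0.136, adjusted p = 0.054), which passed the threshold without the 3 libraries with few genes (adjusted p = 0.028). None of those 3 libraries is from these hours, so leaving them out changed the estimated spread but no difference; 40 members (51.9%) were then lower and RPS26 higher, against 8.42% of all genes lower and 24.5% called in either direction.

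The result leaned on 48 h, the highest time point, and differed between the scalings. At 60 h the share of the family was 13.3% in both A2 and B1, as low as in the 54 h libraries (13.3% to 14.2%). It was 21.1% in 60 h A1, and leaving out that library alone was not tested. Without 48 h among the neighbours the median was −0.17 and RPL15, RPL29 and RPS4X were called lower. Without the 48 h A1 library alone the median was −0.25, with 6 members lower. The shares of all genes called are not given for these fits, nor for those of single times below. Median-ratio scaling gave a median of −0.42 and 25 members lower, 32.5% against 7.36% of all genes. Quantile normalization, which forces every library to 1 distribution, gave −0.074 and 3 lower, which is 3.90% against 7.45% of all genes, so the members' larger share of lower calls was not seen under it. With it RPL4 (0.07), RPL8 (0.01) and RPSA (0.03) changed direction. Taken alone, 30 h had 67 of 77 members below the mean of 24 and 36 h (median −0.20, 2 called lower) and 54 h had 76 below the mean of 48 and 60 h (median −0.37, 8 called lower). At 6 h, with 1 day less of exposure than at 30 h, 50 of 77 members lay below the mean of 4 and 8 h (median −0.10). None was called there (limma, 15 lower at an unadjusted p under 0.05). By time-point mean, 49 members were highest at 48 h, 21 were lowest at 54 h and 16 at 30 h.

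Other genes of ribosome production and translation did not all go the same way at 30 and 54 h. Of 17 translation factors and other genes with TOP mRNAs outside the family, 5 were lower and none higher (29.4% against 4.53% of all genes), with a median of −0.28. The lower calls were 10 with median-ratio scaling, and with quantile normalization 1 was lower and 1 higher. EEF1A1, the main elongation factor, was at 9694 ± 1156 TPM against 12126 ± 1807 TPM (−0.32, SE 0.0675, adjusted p = 6.3e-04) and EEF2 at 1621 ± 91.8 against 2264 ± 341 TPM (−0.48, adjusted p = 0.0087). Of 18 genes of ribosome biogenesis, whose products make and modify ribosomal RNA and assemble the subunits in the nucleolus, 14 were higher and none lower (77.8% against 9.77% of all genes), with a median of 1.38. RRS1, which helps place 5S RNA, was at 109 ± 19.4 TPM against 18.1 ± 8.58 TPM (2.76, SE 0.395, adjusted p = 1.2e-06) and POLR1B, a subunit of RNA polymerase I, at 57.4 ± 15.4 against 13.9 ± 3.90 TPM (1.97, adjusted p = 1.6e-07). These medians kept their sign under both scalings, at −0.41 and −0.075 for the TOP list and 1.25 and 1.23 for biogenesis.

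Among 9 dedicated chaperones and partners of ribosomal proteins, LTV1 (1.99, adjusted p = 3.4e-04), an assembly factor of the small subunit, GRWD1 (1.52, adjusted p = 0.014), a partner of RPL3, and BCCIP (0.69, adjusted p = 0.016), a partner of RPL23, were higher at 30 and 54 h and none was lower. RPL3 itself was lower (−0.31). RPS3 (−0.47 with an adjusted p = 0.0058) was called only without the 3 libraries with few genes. Of 76 mitochondrial ribosomal proteins, which serve the separate ribosome of that organelle, 8 were higher and none lower, with a median of 0.39. These 10.5% are near the 9.77% of all genes. Without the 3 libraries with few genes 19 were higher, 25% against 16% of all genes. Each of the 2 scalings called 4 higher, 5.26%, against 6.85% of all genes with median-ratio scaling and 7.7% with quantile normalization. Late minus early, 11 of 18 biogenesis genes fell and 1 rose (median −0.50), the falls being 61.1% against 15.8% of all genes. Of the mitochondrial proteins 10 fell and 2 rose (median −0.29), or 13.2% and 2.63%, both below the 15.8% and 14.3% of all genes. Without the 3 libraries with few genes 16 fell and 3 rose, or 21.1% and 3.95%, against 19% and 17.8% of all genes.

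**Figure D5:**
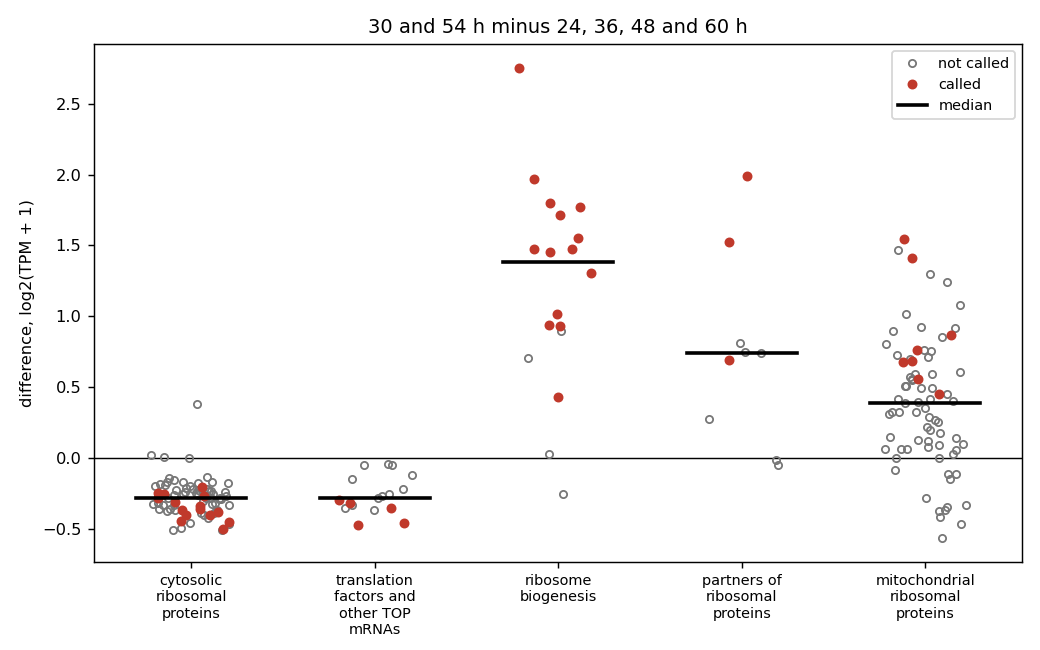
Difference of 30 and 54 h from 24, 36, 48 and 60 h in log2(TPM + 1) (vertical axis) for single genes of 5 lists (horizontal axis; points are spread sideways for sight only), with filled points for called genes and bars for list medians. Cytosolic ribosomal proteins and other TOP mRNAs both centre at −0.28, ribosome biogenesis at 1.38, partners of ribosomal proteins at 0.74 and mitochondrial ribosomal proteins at 0.39.

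Parts of the ribosome gave few calls. The P stalk recruits translation factors; late minus early it was at 0.17 for RPLP0, 0.18 for RPLP1 and 0.05 for RPLP2, none of which was called, and within the first day all 3 were between 0.27 and 0.31 with only RPLP1 called. Without the 3 libraries with few genes RPLP1 was called late minus early (0.19, adjusted p = 0.019) and RPLP0 within the first day (0.20, adjusted p = 0.029), and at 30 and 54 h RPLP0 (−0.37, adjusted p = 8.0e-04) and RPLP1 (−0.24, adjusted p = 0.016) were lower. The mean levels of the stalk proteins were 4862 ± 901, 3765 ± 633 and 2279 ± 513 TPM (SD, n = 59). RPL5 and RPL11, which with 5S RNA form the particle that restrains MDM2 when assembly fails, were at 4927 ± 801 and 3436 ± 1015 TPM; late minus early they were at −0.0024 and −0.15, and neither was called in any of the windows with all libraries. Without the same 3 libraries both were lower at 30 and 54 h, RPL5 at −0.24 (adjusted p = 0.019) and RPL11 at −0.38 (adjusted p = 0.048). Of 14 proteins of the small subunit head, RPS10 and RPS16 were lower and 1 was higher late (median −0.082). Of 7 at the tunnel exit RPL19 was lower (median 0.084), and of 7 that join late RPS10 was lower (median 0.053). The lower calls make up 14.3% of each of these 3 lists, near the 15.8% of all tested genes.

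Some paralogs of the members can replace them in some cells. Of those named here, RPL39L, RPS27L, RPL3L and RPL10L were at much lower mean levels than the members. RPL39L, known from testis and from stem cells, rose from 40.9 ± 19.2 TPM early to 97.8 ± 98.2 TPM late (1.05, SE 0.287, adjusted p = 0.0038), with a value of 400.01 TPM in its highest late library, whereas RPL39 was at 2680.0 ± 1822 and 3199 ± 2946 TPM and was not called (0.22, adjusted p = 0.45). RPS27L, a p53 target, rose from 35.2 ± 14.4 to 56.8 ± 16.7 TPM (0.69, SE 0.249, adjusted p = 0.030). RPL7L1, whose level was near that of the least abundant members, was higher at 30 and 54 h, at 440.5 ± 64.6 against 324 ± 64.8 TPM (0.49, SE 0.143, adjusted p = 0.014). RPL3L, a gene of muscle, reached at most 11.01 TPM, and RPL10L, a gene of testis, at most 3.71 TPM. Of the ribosomal genes outside the rule, FAU was not called in any window, and GNB2L1 was lower at 30 and 54 h (−0.24, adjusted p = 0.031) and higher within the first day (0.21, adjusted p = 0.014).

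Members tended to be high in the same libraries. Pearson's r of each member's log2(TPM + 1) with the mean of the other 76 over the 59 libraries, which share their scaling and time points, had a median of 0.64, and 51 of 77 were over 0.5; among other tested genes the median r with the family mean was −0.075 and 0.23% were over 0.5. RPL31 (0.86), RPL26 (0.83) and RPL41 (0.82) followed the family most closely. RPS26 was the only member below 0 (−0.12), and RPS2 (0.07), RPS29 (0.11) and RPL4 (0.11) came next. The genes outside the family with the highest r were PFDN5 (0.75), a subunit of the prefoldin chaperone, EEF1B2 (0.74), an elongation factor, FAU (0.67), COX4I1 (0.64), RBX1 (0.62), C4orf27 (0.60), HINT1 (0.59), BRK1 (0.58), SELK (0.58) and UBB (0.58).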

How the data were processed

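The deposited values are TPM per gene symbol for each library; the authors made them with RSEM 1.2.3, Bowtie 0.12.8 and CASAVA 1.8.2 on hg19, per the submitters' processing notes, which name no gene annotation. RSEM divides reads among near-identical copies by estimation, which touches genes with this many pseudogenes. Totals were 999997 to 1000001 per library, no 2 libraries were identical, and no interval that needs depth was computed.

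The tests used limma 3.58.1 in R 4.3.3 on log2(TPM + 1), moderated with an intensity trend and adjusted by Benjamini-Hochberg over the 15305 genes that reached a TPM of 1 in 3 or more libraries, at a threshold of 0.05. Contrasts of windows came from 1 fit of a mean per time point, with 39 residual df. For the course, hours entered as a natural spline (4 df), tested by F. The tests were tried on simulated data first. Groups came from the labels. Promoter sequences are RefSeq's on GRCh38.p14, matched by symbol for 62 of 77 members; coding lengths and pseudogene counts are from GENCODE 29. Since that is another build than hg19, no coordinates of the measured transcripts are given. Python 3.11.15 and matplotlib 3.10.9 drew the plots.

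The members and lists were chosen with earlier results of these data known. Values were given for the 5 members highest and lowest in TPM, up to 10 called in each direction of a contrast, the stalk and 5S RNA proteins, fixed lists of related genes (up to 6 each), and the 10 other genes most like the family; a few further members were named where a count or a spread singled them out. Alternatives varied the pseudocount, filter, scaling, block, spline and windows, and left out replicates, libraries and times. Genes of the small nucleolar RNA host list were not analysed here. Results for 6 genes are not reported here singly, and the plots by gene leave out the 5 of them that are members.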

Additional observations from a re-analysis of the deposited data

How the results depend on the processing

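The counts of called members depended on which libraries set the spread, and the precision is limited by 3 libraries a time point. Shares of all tested genes are not set beside the counts of this section, so a change in a count is not read as particular to the members. Leaving out 1 replicate label at a time gave 4 to 9 members called over the course, 5 to 10 for late minus early, 3 to 9 for the first day, 3 to 7 for late minus first day, 2 to 11 at 30 and 54 h and 7 to 11 in the fit centred on the family, all below the counts with every library; the centred median was 0.010 to 0.050. Of 66 member results, 5 kept their call under every alternative: RPL13A in late minus early, late minus first day and the centred fit, and RPL15 in the first 2. Another 61 lost it in at least 1, and 15 changed direction in at least 1.

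Without the 3 libraries with under 10000 genes, 21 members were called over the course, 24 late minus early, 20 late minus first day, 41 at 30 and 54 h and 29 in the centred fit (median 0.061). Without 72 h A2, chosen after seeing the data as were 6 h against 4 and 8 h and the changes at 48 h, they were 20 late minus early and 28 centred (median 0.0084). Median-ratio scaling gave 6 over the course, 8 in the first day, 7 late minus first day and 25 at 30 and 54 h (median −0.42), and quantile normalization 8 in the first day and 3 at 30 and 54 h (median −0.074, with RPL4 at 0.067, RPL8 at 0.0069 and RPSA at 0.029). With 20 time-point means in place of the curve, 23 members changed over the course.

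For late minus early, 66 and 72 h against 2 and 4 h gave 5, 54 h against 6 h gave 2 (median −0.092) and 1 when centred (median 0.0082), and leaving out 6, 30 and 54 h gave 6. For the first day, 22 and 24 h against 2 and 4 h gave 4; 30 h against 6 h gave 0 (limma, 5 at an unadjusted p under 0.05) with a median of −0.11, and RPL10 (−0.0096), RPL22 (−0.086), RPL29 (−0.16), RPL3 (−0.068), RPL4 (−0.065), RPL41 (−0.0090), RPL8 (−0.032), RPS23 (−0.014) and RPS4X (−0.13) were negative. For late minus first day, 66 and 72 h against 22 and 24 h gave 4. At the low times, 30 h alone gave 2, 54 h alone 8, neighbours without 48 h 3, and without 48 h A1 6; 6 h against 4 and 8 h gave 0 (limma, 15 at an unadjusted p under 0.05; median −0.10), with RPL13 at 0.024, RPL15 at 0.0058, RPL3 at 0.0019 and RPL4 at 0.13. Apart from the changes of libraries and times just named, the cause was not tested.

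Labels A1, A2 and B1 recur at each time. The deviations of libraries sharing one had a mean r of 0.0066 over 551 pairs (−0.181 to 0.158), with 8 pairs over 0.1, so the label was not taken as a pairing, although 32 of 59 libraries correlated best with their own label and B1 had the lowest family share at 11 of 19 times. With a replicate block, 11 members were called over the course, 11 late minus early, 15 in the first day, 11 late minus first day, 15 at 30 and 54 h and 15 centred.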
